A study of Mus musculus with 8 samples.

Results

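The small RNA library of mature B cells was set against that of pro-B cells, the last and the first stage of B-cell development sampled from mouse bone marrow. A mouse miRNA entered the comparison when it had 50 or more sequence tags over both libraries, and 267 of the 671 mouse miRNAs in the table did. A tag count was divided by the library's total over mouse miRNAs and given as CPM, the count per 1000000 such tags. Both libraries came from wild type C57BL/6 mice, female and 8 to 10 weeks old by the study's methods, with the cells of 3 mice pooled in each. Live pro-B cells were sorted as B220+IgM-CD43+ and mature B cells as B220hi IgM+CD43-, and no treatment or transgene was used. The pre-B (B220+IgM-CD43-) and immature B (B220+IgM+CD43-) libraries of the same mouse strain are given beside them. There was 1 library per stage, so no difference below has a replicate check, and every interval is a 95% exact interval for counting error alone.

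A miRNA is cut from 1 arm, 5p or 3p, of a hairpin transcript, first by Drosha and Dgcr8 in the nucleus and then by Dicer1 in the cytoplasm, and is loaded into an Argonaute protein. It pairs with messenger RNAs mainly through its seed, bases 2 to 8, and lowers their stability or translation, so miRNAs of 1 seed can reach overlapping targets. In B-cell development miR-150 is known for repressing Myb, the miR-181 family for its high level in early lymphoid cells, miR-142 for its restriction to blood cells, and the miR-17-92 cluster for the survival of early B cells.

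The mature sequences below belong to the miRNAs that carry the comparison. They are RefSeq's, positions are on GRCm38.p6, and capitals mark the seed. RefSeq's table held 227 of the 267 miRNAs, and mmu-miR-150-5p was not among them. The first group was 2-fold or more higher in the mature B library except for miR-29c-3p, which is shown because the 3 miR-29 members share a seed.
mmu-miR-142a-5p: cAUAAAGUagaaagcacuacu
mmu-miR-29a-3p: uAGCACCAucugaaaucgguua
mmu-miR-29b-3p: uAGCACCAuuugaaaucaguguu
mmu-miR-29c-3p: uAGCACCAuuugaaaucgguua
mmu-miR-342-3p: uCUCACACagaaaucgcacccgu
mmu-miR-146a-5p: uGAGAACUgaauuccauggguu

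The second group was 2-fold or more lower in the mature B library except for miR-128-1-5p, which is shown for comparison with miR-128-2-5p. The 4 miR-181 members share 1 seed, and the 2 miR-128 5p products tell the 2 miR-128 genes apart while their 3p product is the same from both.
mmu-miR-181a-5p: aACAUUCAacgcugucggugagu
mmu-miR-181b-5p: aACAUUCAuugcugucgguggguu
mmu-miR-181c-5p: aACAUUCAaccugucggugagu
mmu-miR-181d-5p: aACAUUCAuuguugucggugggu
mmu-miR-128-3p: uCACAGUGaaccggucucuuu
mmu-miR-128-1-5p: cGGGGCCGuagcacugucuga
mmu-miR-128-2-5p: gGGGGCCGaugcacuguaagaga
mmu-miR-690: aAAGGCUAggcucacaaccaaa

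The mouse miRNA tags numbered 768752 in the pro-B library and 1060387 in the mature B library, against 1444396 in pre-B and 2106537 in immature B, and the 267 miRNAs took 99.7% of the tags in pro-B and 99.8% in mature B cells. The sorted stages were checked on the matching rRNA-depleted RNA libraries. Dntt, which adds bases at immunoglobulin gene joints, and Igll1 and Vpreb1, the surrogate light chain, had 845, 427 and 318 estimated counts in pro-B and 0 in mature B cells. Fcer2a had 0 and 358 estimated counts, and Ighd, the heavy chain of IgD, had 59 and 1607. The 3 miRNAs named as markers of this comparison come next, as a description of its own libraries.

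miR-150-5p was at 18036 CPM in pro-B cells and then at 2258 in pre-B, 11892 in immature B and 182070 CPM in mature B cells. It was thus lowest in pre-B cells and 10.1-fold higher in mature B than in pro-B cells (interval 9.92 to 10.3), and it became the most abundant miRNA of the mature B library. miR-142a-5p was at 28986, 68216, 106667 and 136933 CPM in the same order, higher at each stage than at the one before and 4.72-fold higher in mature B than in pro-B cells (interval 4.66 to 4.79). miR-181a-5p was at 121001, 119268, 149011 and 50402 CPM. Its level differed little over the first 3 libraries and was 2.40-fold lower in mature B than in pro-B cells (interval 2.38 to 2.43).

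miR-150-5p and miR-142a-5p together took 4.70% of mouse miRNA tags in pro-B and 31.9% in mature B cells. The share left to all other miRNAs went from 95.3% to 68.1%, which by itself is a difference of -0.48 on the log2 scale for each of them. The pro-B library spread its tags more widely. Its 10 most abundant miRNAs held 60.1% of the tags, against 73.9% in mature B cells, and 6 miRNAs made up the first 50% of tags in pro-B against 4 in mature B cells.

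**Figure D1:**
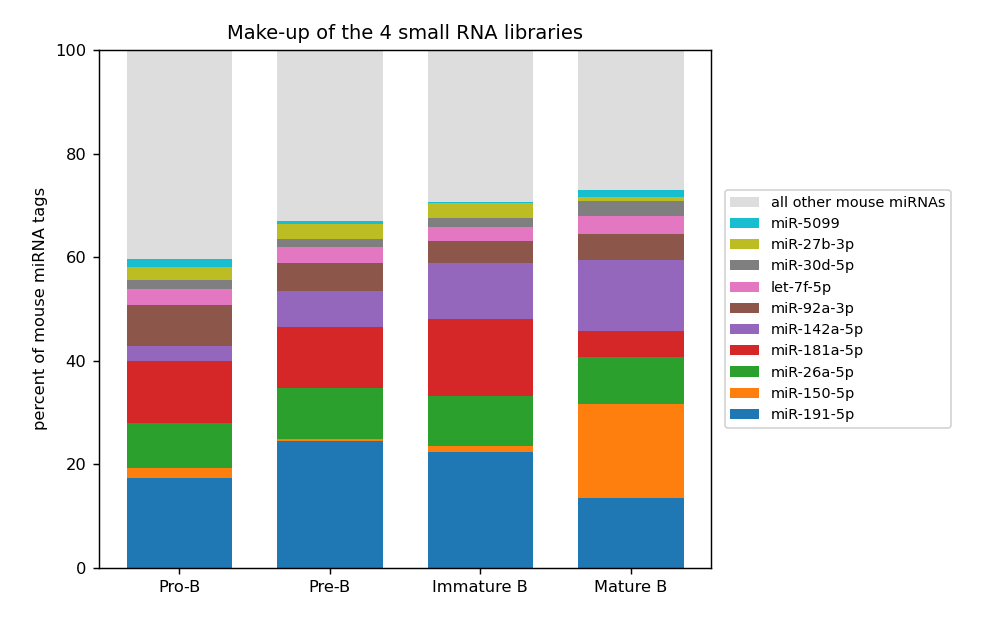
Percent of mouse miRNA tags (vertical axis, from 0 to 100) taken by the 10 miRNAs with the highest mean CPM over the pro-B and mature B libraries, and by all others, in the 4 small RNA libraries (1 bar each). The miR-150-5p segment is thin in the pre-B bar, at 2258 CPM, and the widest of the 10 single miRNAs in the mature B bar, at 182070 CPM, while the miR-181a-5p segment is narrowest in mature B.

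Of the 267 miRNAs, 25 (9.36%) were 2-fold or more higher in mature B cells by CPM, 132 (49.4%) were 2-fold or more lower and 110 were within 2-fold. The log2 ratio of mature B over pro-B ran from -6.55 to 3.53 with a median of -0.99, so the middle miRNA was itself 1.99-fold lower in mature B cells. This centre depends on the scaling. edgeR's TMM moved it by 0.82 and DESeq2's size factors by 0.99 on the log2 scale. With TMM 63 were higher and 82 lower, and with DESeq2's size factors 72 were higher and 70 lower. Taken relative to the median miRNA, 72 (27.0%) were 2-fold or more higher and 70 (26.2%) lower.

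The direction on the CPM scale held under 5 other scalings for 205 of the 267, including all 25 higher and all 132 lower ones. It turned under at least 1 for 62, all within 2-fold. All 25 higher miRNAs stayed past 2-fold under those 5 scalings, and so did 70 of the 132 lower ones. Whether the amount of miRNA per cell differed between the stages was not measured, so fewer tags of a miRNA and more tags of others cannot be told apart. In these pooled sorts, fewer cells of a type and less RNA per cell cannot be told apart either.

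**Figure D2:**
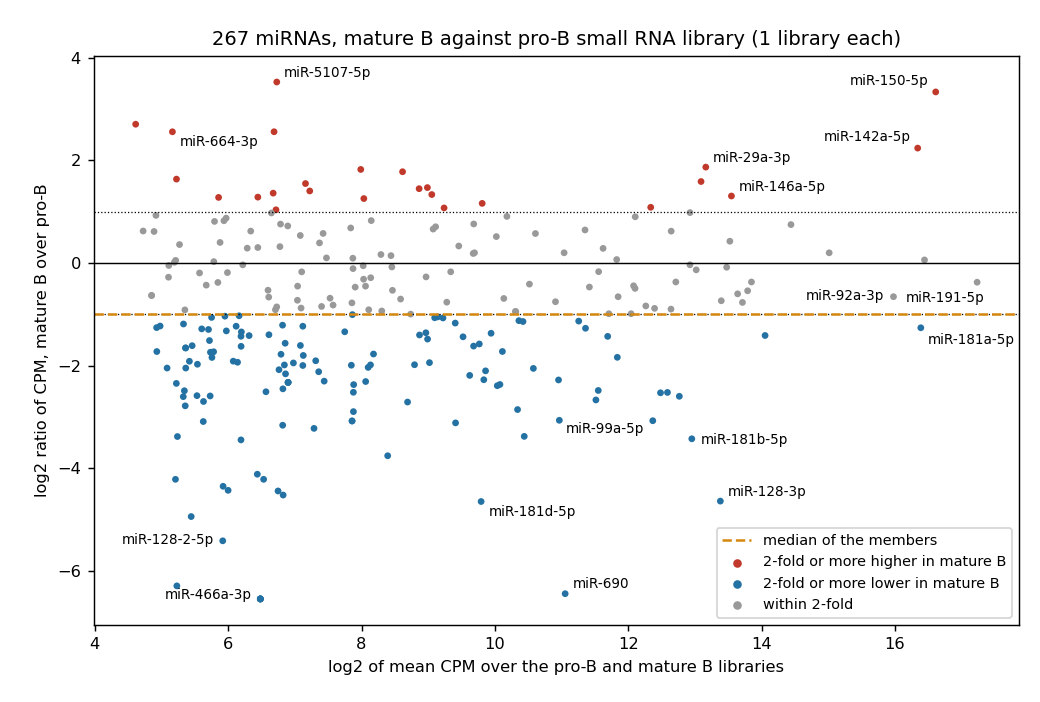
Each of the 267 miRNAs by log2 of its mean CPM over both libraries (horizontal axis) and its log2 ratio of mature B over pro-B cells (vertical axis), with dotted lines at 2-fold and a dashed line at the median of -0.99. The lower miRNAs (blue) reach further from 0 than the higher ones (red), with the 5 equal miR-466 entries at -6.55 and miR-690 at -6.45, while miR-150-5p at 3.34 and miR-142a-5p at 2.24 stand out at the abundant end.

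Among the most abundant miRNAs the ratios were smaller. Of the 20 with the most tags, 5 were 2-fold or more higher, 3 were lower, and the median log2 ratio was -0.23. miR-191-5p, the most abundant miRNA in pro-B cells, was at 173792, 245768, 223392 and 133976 CPM from pro-B to mature B, a log2 ratio of -0.38. miR-26a-5p was at 87225, 98497, 97039 and 90884 CPM, nearly level in the 4 libraries. miR-92a-3p was at 78960, 55407, 43237 and 50066 CPM. The signs for miR-191-5p and miR-92a-3p turned positive with DESeq2's size factors, at 0.62 and 0.33. let-7f-5p was at 30792 CPM in pro-B and 35334 in mature B cells, miR-30d-5p at 16585 and 27865, miR-27b-3p at 24696 and 9267, and miR-5099 at 16624 and 12858.

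The higher group was led by few abundant miRNAs and several rare ones. miR-29a-3p, whose family is known for restraining extracellular matrix and survival genes, was at 3940, 1932, 2750 and 14398 CPM from pro-B to mature B, 3.65-fold higher in mature B than in pro-B (interval 3.51 to 3.80). miR-29b-3p was at 72.8, 18.7, 22.8 and 213 CPM. Both were lower in the pre-B and immature B libraries than in either end stage. miR-29c-3p had only 16 tags in pro-B and 34 in mature B cells, a log2 ratio of 0.62. Summed over the family the log2 ratio was 1.86 (interval 1.80 to 1.91), and 2 of 3 members were 2-fold or more higher. All 3 were 2-fold or more higher relative to the median miRNA. Over all 267 miRNAs 9.36% were higher by CPM and 27.0% relative to the median.

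miR-342-3p, made from an intron of Evl, was at 4356, 4184, 4502 and 13100 CPM, 3.01-fold higher in mature B than in pro-B (interval 2.89 to 3.12), with almost the whole difference between the immature B and mature B libraries. Its other arm, miR-342-5p, went the same way with a log2 ratio of 1.33. miR-146a-5p, an NF-kB target that represses Traf6 and Irak1, was at 6894, 5426, 13137 and 17046 CPM, 2.47-fold higher (interval 2.40 to 2.55). Its seed sister miR-146b-5p was at 3175, 868, 858 and 2293 CPM and had a log2 ratio of -0.47, which differs from that of miR-146a-5p in sign on the CPM scale.

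Among the rarer miRNAs, miR-5107-5p had 13 tags in pro-B and 207 in mature B cells, 11.5-fold higher by CPM, a log2 ratio of 3.53 with an interval of 2.72 to 4.46. miR-1843b-5p had 23 and 187 tags, 5.89-fold (interval 3.81 to 9.53). miR-361-3p was at 112 and 396 CPM and miR-339-3p at 177 and 607 CPM. miR-664-3p had 8 and 65 tags and miR-1843a-3p 5 and 45, so their log2 ratios of 2.56 and 2.71 have wide intervals, 1.50 to 3.83 and 1.38 to 4.40. miR-155-5p, known for its induction in activated B cells, was low throughout, at 111, 92.1, 125 and 160 CPM, with a log2 ratio of 0.54.

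Of the 25 higher miRNAs, 19 had their largest difference between the immature B and mature B libraries, 4 between pre-B and immature B and 2 between pro-B and pre-B. Only miR-142a-5p and miR-140-3p were higher at each stage than at the one before. Of the 132 lower miRNAs, 61 had their largest decline between pro-B and pre-B, 23 between pre-B and immature B and 48 between immature B and mature B, and 38 were lower at each stage than at the one before. These steps share libraries, and the median log2 ratio over all 267 was -0.79, -0.26 and 0.36 at the 3 steps.

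**Figure D3:**
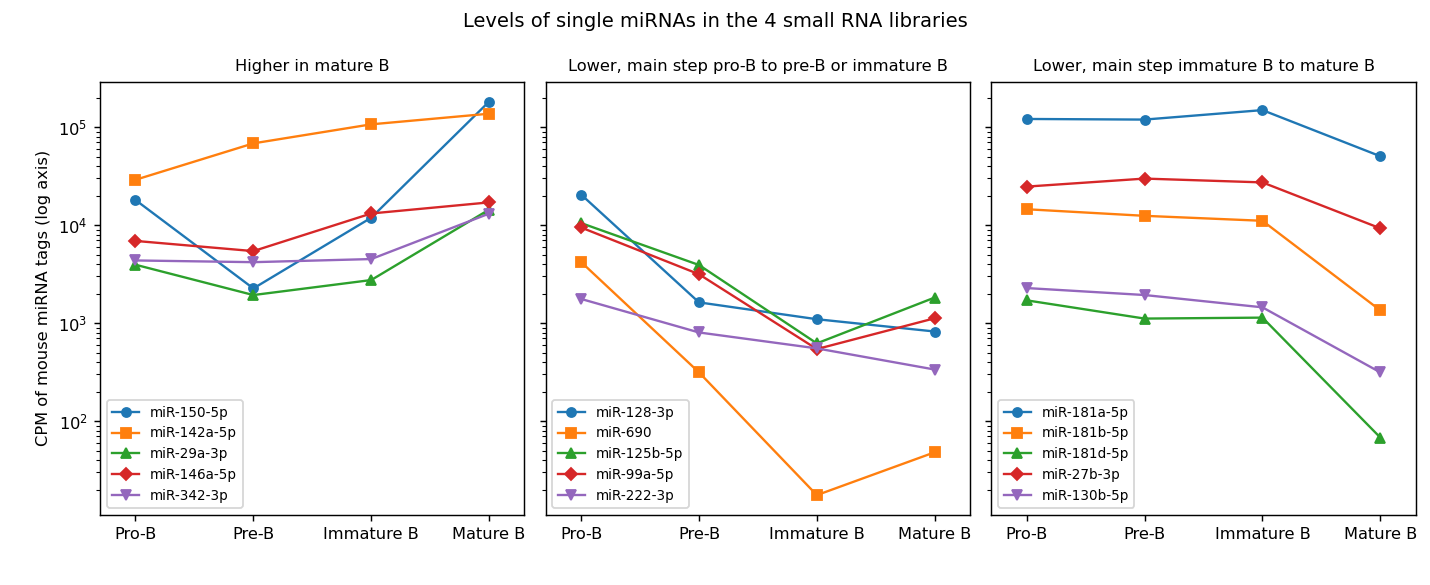
CPM (log axis) in the 4 small RNA libraries for 15 miRNAs in 3 panels, each point 1 library. In the left panel miR-150-5p dips to 2258 CPM in pre-B before 182070 in mature B, in the middle panel miR-690 and miR-128-3p are highest in pro-B, and in the right panel the 5 lines differ little until a decline in mature B.

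The products of the miR-128 genes, which are expressed from a pair of loci, differed by locus. miR-128-3p was at 20512, 1627, 1095 and 820 CPM from pro-B to mature B, a log2 ratio of -4.64 (interval -4.74 to -4.55). The largest part of the difference lay between pro-B and pre-B. miR-128-3p comes from chr1:128202404-128202424 (plus strand), inside the span of R3hdm1, and from chr9:112118644-112118664 (minus strand), inside that of Arpp21. miR-128-2-5p, made only at the chromosome 9 locus, had 93, 0, 2 and 0 tags from pro-B to mature B, at least 42.8-fold lower in mature B against a floor of 3 tags. miR-128-1-5p, made at the chromosome 1 locus, had 27, 31, 23 and 24 tags in libraries of unequal depth. Its interval for mature B over pro-B, from 2.81-fold lower to 1.16-fold higher, included no difference.

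The mRNAs of both spans were also compared. Arpp21 had 139 estimated counts in pro-B cells and 0 in each of the later stages, at least 45.3-fold lower in mature B. R3hdm1 had 90 in pro-B and 109 in mature B cells. The pre-B and immature B mRNA libraries were shallower, at 240231 and 223495 estimated counts in all against 867920 in pro-B and 849350 in mature B cells.

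The miR-181 family was lower in mature B cells in all 7 of its measured members, and 5 of the 7 were also 2-fold or more lower relative to the median miRNA. miR-181b-5p was at 14510, 12431, 11061 and 1348 CPM from pro-B to mature B, 10.8-fold lower in mature B than in pro-B (interval 10.2 to 11.4). miR-181d-5p was at 1707, 1112, 1137 and 67.9 CPM, 25.1-fold lower (interval 19.8 to 32.3). miR-181c-5p was at 939, 486, 779 and 417 CPM, a log2 ratio of -1.17. The 4 sisters of 1 seed thus had log2 ratios from -4.65 to -1.17, and miR-181a-5p and miR-181c-5p lay close to the median miRNA at -0.27 and -0.18 relative to it.

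Neighbouring members differed in size of ratio. miR-181d-5p lies on chr8:84178759-84178781 and miR-181c-5p on chr8:84178924-84178945, both on the minus strand and less than 10 kb apart, with log2 ratios of -4.65 and -1.17. The passenger arm miR-181c-3p had 481 tags in pro-B and 49 in mature B cells, a log2 ratio of -3.76. miR-181a-1-3p and miR-181a-2-3p, which tell the miR-181a genes on chromosomes 1 and 2 apart, had ratios of -3.07 and -2.37, so tags of both loci were lower.

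Several miRNAs known from stem and progenitor cells were lower in mature B cells. miR-99a-5p was at 9449, 3153, 543 and 1120 CPM from pro-B to mature B, 8.43-fold lower (interval 7.93 to 8.98). miR-125b-5p was at 10488, 3916, 621 and 1823 CPM, 5.75-fold lower (interval 5.47 to 6.05). Of the 5 measured members of the miR-125, miR-99 and miR-100 group 4 were 2-fold or more lower, and miR-100-5p had a log2 ratio of -0.69. The same 4 were 2-fold or more lower relative to the median miRNA. Over all 267 miRNAs 49.4% were lower by CPM and 26.2% relative to the median. miR-196b-5p, encoded in a Hox cluster, had 67, 15, 10 and 0 tags, at least 30.8-fold lower in mature B cells, while miR-10a-5p had a ratio of -0.84.

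miR-222-3p and miR-221-3p, which share a seed and are known to repress Kit, were at 1764 and 267 CPM in pro-B and 336 and 61.3 CPM in mature B cells. All 3 measured members of the miR-130 and miR-301 family were 2-fold or more lower, led by miR-130b-5p with 2278 CPM in pro-B and 314 in mature B. All 3 were also 2-fold or more lower relative to the median miRNA, against 26.2% of all 267 (49.4% by CPM). miR-148a-3p, known for its part in B-cell tolerance, was at 5058, 3046, 3198 and 794 CPM, 6.37-fold lower (interval 5.91 to 6.87), whereas its seed sister miR-148b-3p had a log2 ratio of 0.14.

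miR-690 had the largest ratio of the miRNAs with 10 or more tags in both libraries, with 3231, 454, 37 and 51 tags from pro-B to mature B, 87.4-fold lower in mature B than in pro-B (interval 66.3 to 118). miR-466a-3p, miR-466b-3p, miR-466c-3p, miR-466e-3p and miR-466p-3p, of the repeat-rich cluster in an Sfmbt2 intron, each had the same 136, 111, 125 and 2 tags. That was 177, 76.8, 59.3 and 1.89 CPM from pro-B to mature B. The table gives 1 sequence to miR-466a-3p and miR-466e-3p and another to the other 3, so these 5 are uncertain as separate miRNAs. Counted once they were 93.8-fold lower, with an interval of 25.5 to 782 at 2 tags. With the 3 other measured members of that cluster, all 8 were 2-fold or more lower, at log2 ratios from -6.55 to -4.22. The same held relative to the median miRNA. In all, 12 of the 267 miRNAs shared a sequence with another and 260 distinct sequences remained.

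Summed over their members, the let-7, miR-30 and miR-26 families stayed near level on the CPM scale. Summed log2 ratios were 0.03 for let-7 (interval 0.02 to 0.05), 0.01 for miR-30 (interval -0.01 to 0.03) and 0.07 for miR-26 (interval 0.06 to 0.08). Relative to the median miRNA, however, 5 of 12 let-7, 2 of 8 miR-30 and all 3 miR-26 members were 2-fold or more higher. On the CPM scale 1 of 12 let-7 members was past 2-fold, let-7e-5p at 190 CPM in pro-B and 42.4 in mature B. So was 1 of 8 miR-30 members, miR-30a-5p at 1305 and 437 CPM. miR-30d-5p and miR-30b-5p had log2 ratios of 0.75 and 0.57, while those of the other miR-30 members were negative. let-7e-5p lies within 10 kb of miR-99b-5p and miR-125a-5p, and these 3 had log2 ratios between -2.28 and -2.06. Lin28a and Lin28b, which block let-7 processing, had 0 estimated counts in both stages.

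The miR-17-92 cluster differed within itself. miR-17-5p was at 823, 1138, 830 and 214 CPM and miR-20a-5p at 709, 995, 949 and 179, log2 ratios of -1.94 and -1.98. miR-19b-3p was at 623, 977, 1514 and 784 CPM and miR-19a-3p at 146, 263, 381 and 129, log2 ratios of 0.33 and -0.17. The 17 and 20 members of 1 seed were thus lower while the 19 members of another differed little. In the X-linked miR-106a-363 cluster all 4 measured members listed only there were 2-fold or more lower, with miR-20b-5p at -3.16. miR-92a-3p at -0.66 and miR-19b-3p at 0.33 also lie in that cluster. They were counted with miR-17-92 alone, and their tags cannot be assigned to 1 of the 2 loci. In the miR-106b-25 cluster 3 of 6 were 2-fold or more lower, with log2 ratios between -1.48 and -0.76. Relative to the median miRNA, 2-fold or more lower were 0 of 9 members of the miR-17-92 cluster, 3 of 4 of miR-106a-363 and 0 of 6 of miR-106b-25. Over the 6 miRNAs with the miR-17 seed, from all 3 clusters, the summed log2 ratio was -1.47.

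Of the imprinted Dlk1-Dio3 cluster 1 of 24 entries reached 50 tags, miR-127-3p at 762, 69.2, 29.0 and 368 CPM, lower in the middle stages than at either end. The other lists gave mixed counts, to be read against 49.4% lower and 9.36% higher over all 267. In the miR-23, miR-27 and miR-24 clusters 6 of 8 were 2-fold or more lower, in the X-linked cluster of miR-322 and miR-351 4 of 7, in the miR-15 and miR-16 family 3 of 6, in miR-191 and miR-425 2 of 4, and in the miR-183-96-182 cluster 1 of 2. Relative to the median miRNA 0 members of these 5 lists were 2-fold or more lower, nor was miR-127-3p. miR-15b-5p, which represses cyclins and Bcl2, was at 5609, 11846, 7503 and 2825 CPM with its peak in pre-B cells. None of the miR-212 and miR-132 members reached 50 tags.

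**Figure D4:**
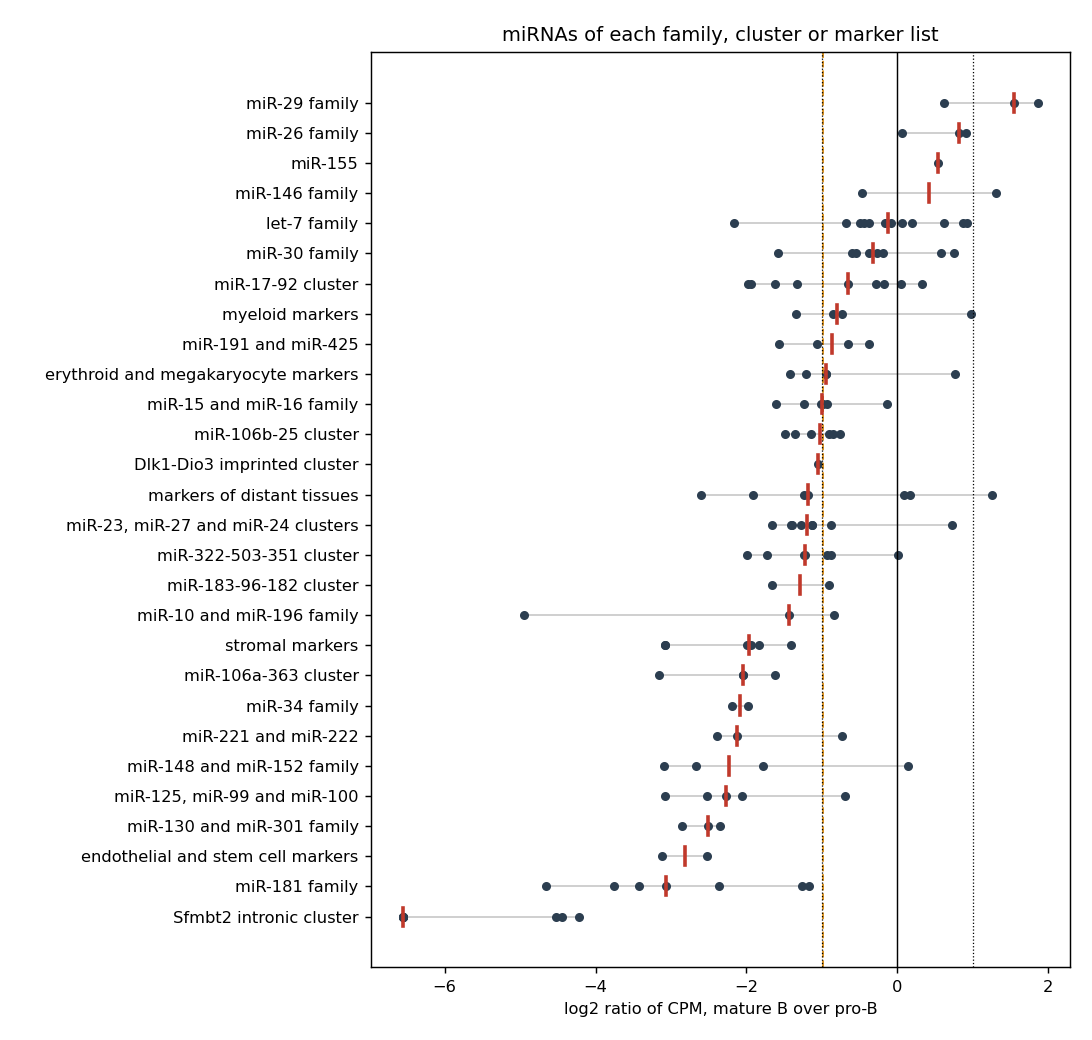
Log2 ratio of mature B over pro-B (horizontal axis) for each measured miRNA (points) of 28 families, clusters and marker lists, with the list median as a red bar, dotted lines at 2-fold and a dashed line at the median of all 267. The miR-29 family lies furthest to the right with a median of 1.55, and the Sfmbt2 intronic cluster and the miR-181 family lie furthest to the left at -6.55 and -3.07 (-4.49 for the former with its 5 entries of equal counts taken once).

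Grouped by seed, the 227 miRNAs with a RefSeq sequence fell into 175 seeds, of which 28 had 2 or more members. The miR-191 seed held 173792 CPM in pro-B and 133976 in mature B cells. The miR-181 seed held 138158, 133297, 161989 and 52235 CPM from pro-B to mature B, the miR-26 seed 88031, 99216, 97854 and 92397, and the seed of miR-142a-5p 28986, 68216, 106667 and 136933. The seed shared by miR-92a-3p, miR-25-3p, miR-363-3p, miR-32-5p and miR-92b-3p held 88632 CPM in pro-B and 55038 in mature B cells, and the let-7 seed 68866 and 70339. The miR-27 seed held 28411 and 10804. No sum is given for the miR-30 seed, since miR-30d-5p and miR-30b-5p had no RefSeq sequence. The order of the leading seeds thus changed, with the miR-181 seed second in pro-B cells and behind those of miR-142a-5p, miR-191, miR-26, let-7 and miR-92a-3p in mature B cells, miR-150-5p not being part of this grouping.

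Both arms were measured in 57 hairpins. In 43 both arms had log2 ratios of the same sign, and in 36 the arms differed from each other by less than 2-fold. The 3p share of tags differed beyond both Wilson intervals in 31 hairpins. In the leading hairpins the rarer arm differed from the abundant one. The 3p arm of miR-150 held 1.47% of tags in pro-B (Wilson interval 1.28 to 1.68) and 0.408% in mature B cells (interval 0.381 to 0.437), so miR-150-3p, with a log2 ratio of 1.47, was higher by less than miR-150-5p. The 3p arm of miR-142a went from 1.88% (interval 1.71 to 2.06) to 0.898% (interval 0.850 to 0.947). The 3p arms of miR-181a went from 4.26% to 1.52% and that of miR-181c from 40.0% to 9.98%.

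The more abundant arm differed between the stages in 6 hairpins, and in 2 of them, miR-664 and miR-221, the intervals of both stages excluded 50%. miR-664 had 8 of 73 tags on its 3p arm in pro-B (interval of the share 5.66% to 20.2%) and 65 of 92 in mature B cells, 70.7% (interval 60.7 to 79.0). Its arms had log2 ratios of -1.73 and 2.56. miR-17 had 27.3% of tags on the 3p arm in pro-B (interval 24.5 to 30.4) and 54.2% in mature B cells (interval 49.8 to 58.6). The 3p share of miR-221 went from 61.9% (interval 56.6 to 67.0) to 38.2% (interval 31.3 to 45.7) and that of miR-1843b from 65.7% (interval 53.7 to 75.9) to 45.5% (interval 40.3 to 50.8). For let-7d it was 41.5% (interval 40.4 to 42.7) and 50.3% (interval 49.2 to 51.4), and for miR-331 the intervals overlapped.

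**Figure D5:**
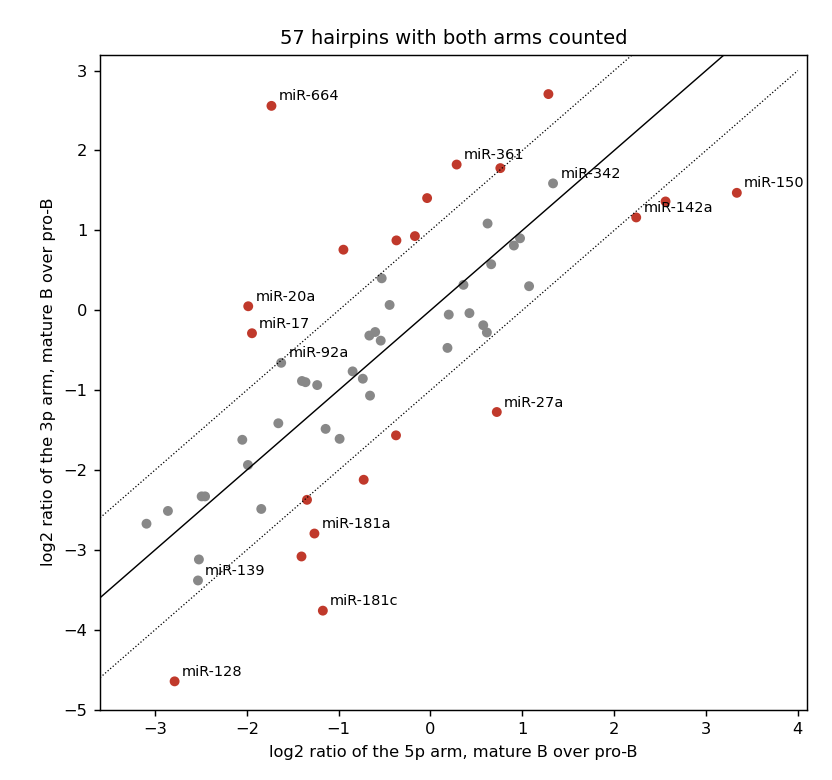
Log2 ratio of mature B over pro-B for the 5p arm (horizontal axis) and the 3p arm (vertical axis) of 57 hairpins, with a solid line where both are equal and dotted lines where they differ 2-fold (red points lie on or beyond). miR-664 stands furthest from the line at -1.73 and 2.56, while miR-342 lies close to it. miR-139, at -2.53 and -3.38, lies between the dotted lines.

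By position, 32 groups of 2 or more hairpins lay on 1 strand with gaps of at most 10 kb. All members were below 0 in 21 of them and above 0 in 3, and in 11 all were 2-fold or more lower. Over all 267 miRNAs 195 were below 0 and 49.4% were 2-fold or more lower. A miRNA with 2 loci, such as miR-181a-5p or miR-181b-5p, entered 2 groups, so the groups are not independent. The 11 groups include the X-linked ones of miR-743, of miR-741 and miR-871, and of miR-465. Their members had no or few tags in pre-B and immature B. In the miR-465 group, miR-465a-3p, miR-465b-3p and miR-465c-3p are the same tags. For 78 miRNAs of 1 locus inside 1 protein-coding gene with 20 or more mRNA counts over both stages (53 genes, strand not considered), the log2 ratio of the miRNA and of the mRNA had a Pearson r of 0.48 and a Spearman rho of 0.31. These points share libraries and several share a gene. The lowest point on both scales, miR-128-2-5p with Arpp21 at -5.42 and -5.50, is a bound on each, with 0 counts in mature B. The correlations without it were not computed. miR-199b-3p was taken as a miRNA of 1 locus, in Dnm1, though it has the same tags as miR-199a-3p of other loci. miR-139-5p and miR-139-3p at -2.53 and -3.38 lay in Pde2a, whose mRNA was at -2.57. miR-191-5p at -0.38 lay in Dalrd3, whose mRNA had 41.9 and 5.06 estimated counts. miR-342-3p at 1.59 lay in Evl, with 12.6 and 9.54.

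The GC content of the mature sequence had a Pearson r of -0.10 and a Spearman rho of -0.10 with the log2 ratio over the 227 miRNAs with a sequence. The first base was U in 14 of 23 higher, 45 of 110 lower and 45 of 94 others.

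Of the miRNA machinery, Dicer1 had FPKM values of 6.32 in pro-B and 8.14 in mature B cells, Ago2 15.2 and 16.9, Ago1 5.86 and 4.31, and Drosha 2.12 and 2.13. By FPKM all 4 were lower in pre-B and immature B cells, where the mRNA libraries were shallow. By estimated counts in the end stages Dicer1 had 130 and 185, Ago2 402 and 558, Ago1 160 and 156, and Drosha 52 and 26. Drosha was thus level by FPKM but lower in mature B by counts, while Ago1 was level by counts. Ago3 had 35 and 90 estimated counts, Dgcr8 72 and 50, and Xpo5 66 and 69. Myb, a known target of miR-150, had 1189, 280, 69 and 21 estimated counts from pro-B to mature B, with 67.4 and 1.12 FPKM in the end stages. Foxp1, another known target, had 402 and 616 estimated counts in the end stages, higher in mature B cells. Of the 19 mRNAs listed for this purpose 17 were in the table.

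miRNAs known from other cell types were more abundant in the pro-B library for several lists. The endothelial and stem cell markers miR-126a-3p and miR-126a-5p summed to 1621 CPM in pro-B and 210 in mature B cells. The stromal markers, led by miR-143-3p at 5714, 2576, 84.5 and 1597 CPM, summed to 7850 and 2098. All 6 measured members were 2-fold or more lower, 2 of them also relative to the median miRNA. These 2, miR-199a-3p and miR-199b-3p, had the same 319 tags in pro-B and 52 in mature B cells. The same tags were thus counted for both entries, here and in the sums. Markers of distant tissues summed to 13297 and 3148 CPM, of which miR-122-5p, known from liver, had 11954, 15915, 1091 and 1972. Within that list miR-200c-3p went the other way, at 155 and 370 CPM. miR-200a-3p, at 295 and 331 CPM, and miR-141-3p, at 226 and 241, were slightly higher in mature B too. Of its 7 measured members 4 were 2-fold or more lower and 1 higher. Relative to the median miRNA 1 was lower and 3 were higher. The myeloid list summed to 19158 and 18617 CPM, with miR-223-3p, the defining granulocyte marker, at 308 and 122 and miR-22-3p, which B cells also express, the other way at 5231 and 10333. The erythroid list summed to 3727 and 2026 CPM. Most of it was miR-486a-5p, with 1288 and 921 tags, and miR-486b-5p, with 1282 and 918. With counts this close, the same tags may have been counted for both. miR-486a-3p went the other way, at 82.0 and 139 CPM. Of the 5 measured erythroid members 2 were 2-fold or more lower. Relative to the median miRNA 0 were lower and 1 was higher. Of these lists miR-214-3p (29 tags in pro-B), miR-223-5p (15) and miR-133a-5p (5) were at 0 in mature B cells, and miR-206-3p, miR-9-3p and miR-22-5p (8 tags each in mature B) and miR-141-5p (4) were at 0 in pro-B cells. Their part in the lower group was not tested, and without the members of these lists 117 of 243 miRNAs were 2-fold or more lower.

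A further 13 of the 132 lower miRNAs had 0 tags in both the pre-B and the immature B library and more than 3 in both pro-B and mature B. Of these 12 lie on the X chromosome, and they include miR-741-3p with 1159 tags in pro-B and 372 in mature B, miR-871-3p with 551 and 116, and miR-202-5p with 66 and 14, miRNAs known from the gonads. Their log2 ratios ran from -2.79 to -1.61 with a median of -2.33. Among them miR-465a-3p, miR-465b-3p and miR-465c-3p share 1 sequence and the same 153 and 42 tags, so 1 set of tags was counted 3 times. All 13 were chosen after their values were seen, and with these repeats they summed to 3884 CPM in pro-B and 803 in mature B cells. miR-34c-5p came close to the same pattern with 1293, 11.8, 0.949 and 283 CPM.

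At the limit of 50 tags, miR-1843a-3p and miR-29c-3p had 50 and miR-128-1-5p had 51. Just below it, miR-669c-5p had 48 tags, with 48 in pro-B and 0 in mature B, and miR-450b-5p and miR-466i-5p had 46. The lower bound of the interval was past 2-fold for 17 of the 25 higher miRNAs, and the upper bound for 106 of the 132 lower ones.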

How the data were processed

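Small RNA of 18 to 30 nucleotides from sorted bone marrow B cells was sequenced without molecular identifiers being mentioned. The miRNA table holds tag counts as deposited. The authors had removed tags matching other small RNAs, exons, introns and repeats and had assigned the rest with miRBase and mirdeep2. The submitters' processing notes name Bowtie 0.12.2 and mm9. The deposited TPM values are tags over all clean tags, with a small value in place of 0. The mRNA table holds estimated counts and FPKM values that the authors deposited from rRNA-depleted libraries. Their lncRNA and circRNA tables were not used.

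Here each count was divided by its library's mouse miRNA total. Ratios took 3 tags in place of 0, and carry 95% Clopper-Pearson intervals. A call was a ratio of 2-fold or more, and with 1 library per stage no test was made. The miRNAs named were the 3 markers, the 10 with the most CPM, the 10 most clearly higher and 10 most clearly lower by their interval, up to 4 per list, and 3 on each side of the limit. Any others were chosen after their values were seen. The members and lists were chosen with earlier results of these data known. Alternatives were 5 scalings, including TMM (edgeR 4.0.16) and DESeq2 1.42.0 size factors, 3 tag limits, 1 added tag, stricter calls and summed arms. The interval was tested on simulated counts. Python 3.11.15 and scipy 1.17.1 were used.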

Additional observations from a re-analysis of the deposited data

Results flagged for a closer look

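Signal outside the mouse miRNAs was present in both libraries. In mature B cells 13.5% of all tags in the table belonged to rows with other names. The 3 with the most tags, on the scale of mouse miRNA CPM, were miR-92-y with a log2 ratio of -0.42, miR-2478-z with -1.12 and miR-5099-z with 0.18. Of 150 such rows with 50 or more tags, 105 shared 16 or more bases in a row with a mouse miRNA of the table, among them miR-92-y with miR-92a-3p.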

How the results depend on the processing

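The count of 25 miRNAs that were 2-fold or more higher became 63 with TMM, 72 with DESeq2's size factors and 72 relative to the median, 63 of 595 with a minimum of 1 tag and 16 of 215 with the arms of a hairpin summed. The 132 lower ones became 82, 70 and 70 with those scalings, 279 of 595 with a minimum of 1 tag and 66 of 167 with a minimum of 200. The median log2 ratio of -0.99 became -0.17 with TMM, 0.0025 with DESeq2's size factors, -0.75 with totals without miR-150-5p and miR-191-5p, -0.74 and -0.88 with minimums of 200 and 1 tag, and -1.12 with arms summed. Scaling to all tags, the deposited TPM, 1 added tag and a minimum of 20 tags kept the counts within 1.5 times, and so did counting identical sequences once, adding near copies and leaving out the 13 X-linked and gonadal or the other-tissue miRNAs, which were chosen after seeing the data. No miRNA named and past 2-fold changed sign under a scaling. No paired analysis was possible because each stage had 1 library. A share or ratio resting on few tags, such as that of miR-664-3p, is limited by depth. The interval covers counting error only, and 3 tags correspond to 3.90 CPM in pro-B and 2.83 in mature B cells.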

Other observations

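Among rows without a mouse miRNA name, 15 of 150 were 2-fold or more higher in mature B cells and 60 were lower, with a median log2 ratio of -0.80. For the 267 mouse miRNAs 9.36% were higher and 49.4% lower, with a median of -0.99. Since 105 of the 150 rows shared 16 or more bases with a mouse miRNA, the sets are not independent. miR-142-x, which shares a stretch with miR-142a-5p, was at 5510, 9288, 15780 and 17345 CPM from pro-B to mature B, a log2 ratio of 1.65 against 2.24 for miR-142a-5p. miR-181-x, which shares a stretch with miR-181a-5p, was at 2315, 1687, 1712 and 382 CPM, a ratio of -2.60 against -1.26. miR-23-z, which shares one with miR-23a-3p and miR-23b-3p, was at 2538, 3419, 2613 and 432 CPM. miR-430-y shared none and had 1218 tags in pro-B, 1 in pre-B, 0 in immature B and 1587 in mature B cells, like the 13 miRNAs that were counted in the end stages alone.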
